A study of Mus musculus with 32 samples.

Results

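Bcl3, Bcl6, Nfil3 and Bhlhe40 encode nuclear regulators that are best known for holding genes down, and their transcripts were followed over 32 gene arrays of 4 Ba/F3 lines. The members were taken as the probe sets that carry 1 of these symbols alone, and each gene had 1 such probe set (Bcl3 10560685, Bcl6 10438738, Nfil3 10409278 and Bhlhe40 10540472). They are 4 of 19938 genes named by a single symbol and 4 of 23410 probe sets tested. Values are log2 RMA expression, a background-corrected and normalized summary of the probes of a gene, and 1 unit is a doubling of signal.

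Ba/F3 is a murine pro-B cell line that needs IL-3, or a receptor that replaces its signal, to grow. All 4 lines carried human gp130 and per the labels were cultured in medium with Hyper-IL-6, a fusion of IL-6 with its soluble receptor. The methods add that Hyper-IL-6 was removed after drug selection and synthetic receptor lines were then selected for growth on GFP and mCherry ligands. Ba/F3-gp130 (8 arrays) had no further receptor, and 8 arrays each came from Ba/F3-IL-12Rβ1-IL-23R and from Ba/F3-SyCyR(IL-23/2A). The label of Ba/F3-IL-12Rβ1-IL-23R calls the receptor pair a variant. The paper describes the pair as murine IL-12Rβ1 and IL-23R and treats it as the natural receptor. The last 8 were of Ba/F3-SyCyR(IL-23R). A SyCyR is a synthetic cytokine receptor in which a nanobody against GFP or mCherry stands in place of the ligand-binding part. The former SyCyR line pairs the inner parts of IL-12Rβ1 and IL-23R, and the latter holds that of IL-23R alone. Each receptor was introduced by retrovirus and each line was selected on its own, so a line is 1 selected culture and a difference between lines cannot be told apart from its history. The protocol in the labels gives 3 h without serum and then 1 h with 100 ng/ml of GFP-mCherry, IL-23 or 3xGFP. Per the methods, supernatant of untransfected CHO-K1 cells served as the control, and each receptor line was compared with and without its ligand. The label of an array gives the line by a letter and a number from 13 to 20, and it does not give the ligand. Arrays were therefore described by line and by odd or even number, 4 arrays each, and no array is called stimulated. The methods speak of 4 independent replicates for the receptor lines. The cultures behind the Ba/F3-gp130 arrays are not described, so the spread between these arrays may be technical. The p-values rest on 1 estimate of the spread between arrays for each probe set, shared by all lines. They do not measure the spread of a single line.

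As background, Bcl3 is an unusual member of the IκB family that enters the nucleus and binds NF-κB p50 and p52 dimers, where it can repress or activate. Bcl6 is a POZ zinc finger repressor that works through corepressors such as Bcor and Ncor, and B cells need it to form germinal centres. Nfil3 is a bZIP repressor known to be regulated by IL-3 in pro-B cells, and Bhlhe40 is a helix-loop-helix repressor of E-box genes that also takes part in the circadian clock. Transcription of several of these genes is known to respond to cytokine receptors that activate STAT factors.

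Promoter windows from RefSeq on build GRCm38.p6, reaching from 250 bases before to 50 after an annotated start, were found for 3 of the 4 members, with a pair of starts for Bcl6. They were searched on both strands for 7 motifs because all 4 members were higher in the odd arrays of Ba/F3-IL-12Rβ1-IL-23R, which did not hold in every line. Capitals mark the matches, and the stretches are shown 5′ to 3′ on the minus strand, on which all of them are transcribed. For Bcl6 and Nfil3 the 250 bases before the start are shown, and for Bcl3 the match with 10 bases on either side.
Bcl6, first start, chr16:23988853-23989102: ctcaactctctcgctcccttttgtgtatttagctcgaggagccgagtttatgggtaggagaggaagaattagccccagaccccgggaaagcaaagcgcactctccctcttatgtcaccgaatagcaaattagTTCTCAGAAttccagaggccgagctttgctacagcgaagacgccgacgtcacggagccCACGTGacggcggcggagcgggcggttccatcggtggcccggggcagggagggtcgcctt
Bcl6, second start, chr16:23981284-23981533: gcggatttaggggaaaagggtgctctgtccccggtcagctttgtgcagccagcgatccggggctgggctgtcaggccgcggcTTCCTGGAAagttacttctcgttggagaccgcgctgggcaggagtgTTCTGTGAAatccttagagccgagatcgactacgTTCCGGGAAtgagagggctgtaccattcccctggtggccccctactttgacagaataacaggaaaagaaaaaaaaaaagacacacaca
Bcl3, chr7:19822734-19822763: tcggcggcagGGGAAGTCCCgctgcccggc
Nfil3, chr13:52981040-52981289: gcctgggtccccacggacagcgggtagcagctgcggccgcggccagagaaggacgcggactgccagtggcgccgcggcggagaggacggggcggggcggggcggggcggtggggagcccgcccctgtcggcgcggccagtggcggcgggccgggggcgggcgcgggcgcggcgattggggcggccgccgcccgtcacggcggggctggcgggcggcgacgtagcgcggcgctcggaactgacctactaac
The STAT type letters TTCNNNGAA occurred in both Bcl6 windows, starting 118 bases before the first start and 168, 122 and 88 bases before the second. Of 32851 promoters in the table, 8.3% hold these letters. The E-box CACGTG, held by 7.15% of promoters, lay 60 bases before the first Bcl6 start. An NF-κB type motif, held by 1.2%, began 2 bases after the Bcl3 start on the opposite strand. The STAT type letters with a spacer longer by 1 base (6.95% of all promoters) had no match in the 4 windows. Neither had TTACGTAA (0.119%) and TTATGTAA (0.938%), which Nfil3 and PAR bZIP factors bind, nor the AP-1 letters TGACTCA (5.2%). The Nfil3 window held no match to any of the 7. These are matches of letters, and no binding was measured.

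The medians of the 32 arrays lay between 6.94 and 7.18, no arrays were identical, and the lowest correlation between arrays of a line was 0.9883. Markers of the labelled cell type were only in part above the median of all probe sets (7.04). Of 15 pro-B markers, 10 lay below it, Pax5, Ebf1, Rag1 and Rag2 among them, while Cd79a, Cd79b and Ptprc were clearly above. No marker of pro-B, granulocyte, mast, T or erythroid cells was called between odd and even arrays of any line, and between lines a few were, of which the ones that go with a result stand beside it.

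**Figure D1:**
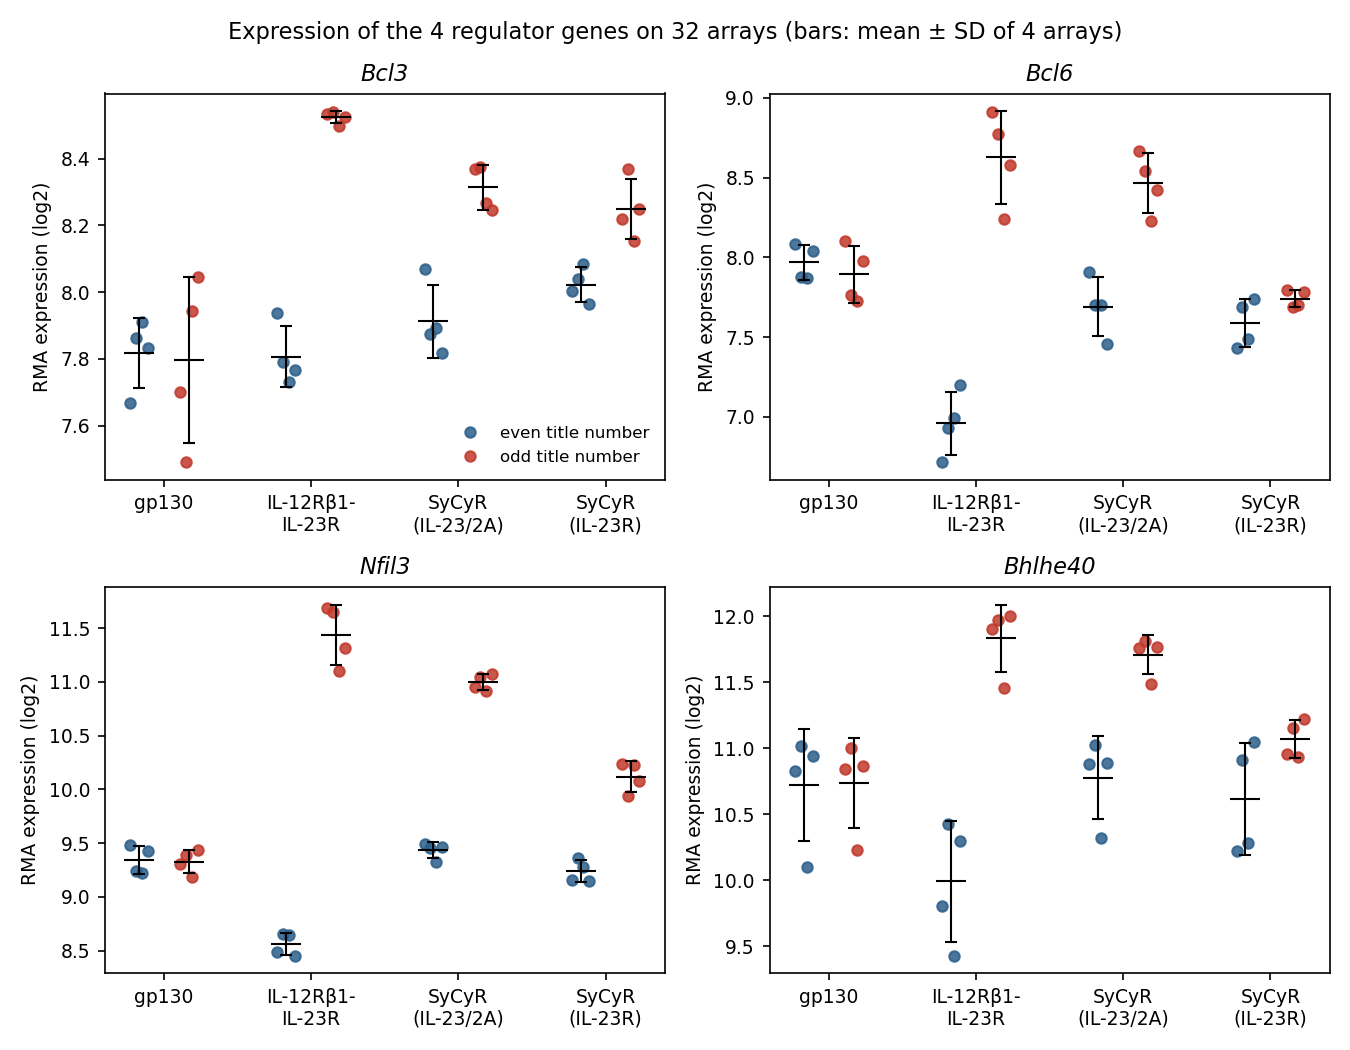
Log2 RMA expression of Bcl3, Bcl6, Nfil3 and Bhlhe40 on each of 32 arrays, by line on the x axis and by even (blue) or odd (red) title number, with the mean ± SD of 4 arrays in black. In Ba/F3-gp130 the blue and red points overlap for every gene, while Ba/F3-IL-12Rβ1-IL-23R has them apart for every gene.

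Bcl3 was the member with the smallest odd minus even differences within the IL-12Rβ1-IL-23R and SyCyR(IL-23/2A) lines, though not within the others. Odd Ba/F3-gp130 arrays, in number order, read 7.70, 7.49, 7.94 and 8.04 and even ones 7.67, 7.86, 7.91 and 7.83. These overlapped, and the odd arrays of this line were the most spread of all 8 groups for Bcl3 (SD 0.25, n = 4). Odd Ba/F3-IL-12Rβ1-IL-23R arrays read 8.53, 8.54, 8.50 and 8.52 and even ones 7.94, 7.79, 7.73 and 7.77. The odd arrays of this line lay within 0.041 of each other and above all other groups. Odd Ba/F3-SyCyR(IL-23/2A) arrays read 8.37, 8.37, 8.27 and 8.24 and even ones 8.07, 7.87, 7.89 and 7.82. Odd Ba/F3-SyCyR(IL-23R) arrays read 8.22, 8.37, 8.15 and 8.25 and even ones 8.00, 8.04, 8.09 and 7.96. Both SyCyR lines had every odd array above every even array. By mean, the order of the groups was the odd arrays of the IL-12Rβ1-IL-23R, SyCyR(IL-23/2A) and SyCyR(IL-23R) lines at 8.52, 8.31 and 8.25, then the even arrays of SyCyR(IL-23R) at 8.02 and of SyCyR(IL-23/2A) at 7.91. The other 3 groups followed between 7.80 and 7.82. Neighbours in this order were apart only at the first step and at the step from 8.25 to 8.02.

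Bcl6 had its widest range, 2.20, in Ba/F3-IL-12Rβ1-IL-23R. Odd Ba/F3-gp130 arrays read 8.11, 7.76, 7.72 and 7.98 and even ones 8.08, 7.88, 7.87 and 8.04, with full overlap. Odd Ba/F3-IL-12Rβ1-IL-23R arrays read 8.91, 8.77, 8.24 and 8.58 and even ones 6.72, 6.93, 6.99 and 7.20. This line held both the highest and the lowest group mean of Bcl6, 8.63 and 6.96. Odd Ba/F3-SyCyR(IL-23/2A) arrays read 8.67, 8.54, 8.23 and 8.42 and even ones 7.91, 7.70, 7.70 and 7.45. Odd Ba/F3-SyCyR(IL-23R) arrays read 7.79, 7.69, 7.70 and 7.78 and even ones 7.43, 7.69, 7.49 and 7.74, and here the groups overlapped. In the order of the 8 means, the odd arrays of the IL-12Rβ1-IL-23R and SyCyR(IL-23/2A) lines led and overlapped each other. A gap separated them from both groups of Ba/F3-gp130, and a further gap set the even arrays of the IL-12Rβ1-IL-23R line below all others. Between these gaps no neighbours were apart.

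Nfil3 was the member whose groups were best separated. Odd Ba/F3-gp130 arrays read 9.30, 9.39, 9.19 and 9.43 and even ones 9.48, 9.24, 9.23 and 9.43. Odd Ba/F3-IL-12Rβ1-IL-23R arrays read 11.69, 11.65, 11.10 and 11.32 and even ones 8.49, 8.65, 8.65 and 8.45. As for Bcl6, this line supplied the highest and the lowest mean, 11.44 and 8.56. Odd Ba/F3-SyCyR(IL-23/2A) arrays read 10.95, 11.05, 10.91 and 11.08 and even ones 9.49, 9.46, 9.32 and 9.46. Odd Ba/F3-SyCyR(IL-23R) arrays read 10.23, 9.94, 10.23 and 10.08 and even ones 9.16, 9.36, 9.28 and 9.15. The odd arrays of the 3 receptor lines fell in the order 11.44, 11.00 and 10.12 with no overlap between neighbours. The even arrays of the SyCyR lines and all 8 arrays of Ba/F3-gp130 overlapped one another, between 9.15 and 9.49.

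Bhlhe40 was the member with the widest spread within a group, an SD of up to 0.46. Odd Ba/F3-gp130 arrays read 10.85, 11.00, 10.23 and 10.87 and even ones 10.83, 11.01, 10.10 and 10.94. Odd Ba/F3-IL-12Rβ1-IL-23R arrays read 11.90, 11.97, 11.45 and 12.00 and even ones 9.81, 10.43, 9.43 and 10.30. The odd and even arrays of this line did not overlap. Odd Ba/F3-SyCyR(IL-23/2A) arrays read 11.76, 11.81, 11.49 and 11.77 and even ones 10.88, 11.02, 10.32 and 10.89. Odd Ba/F3-SyCyR(IL-23R) arrays read 10.96, 11.16, 10.94 and 11.22 and even ones 10.22, 10.91, 10.28 and 11.05, and the groups overlapped. The odd arrays of the IL-12Rβ1-IL-23R and SyCyR(IL-23/2A) lines, at means of 11.83 and 11.71, overlapped each other and lay above the rest. From the third group down to the last no neighbours were apart.

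**Figure D2:**
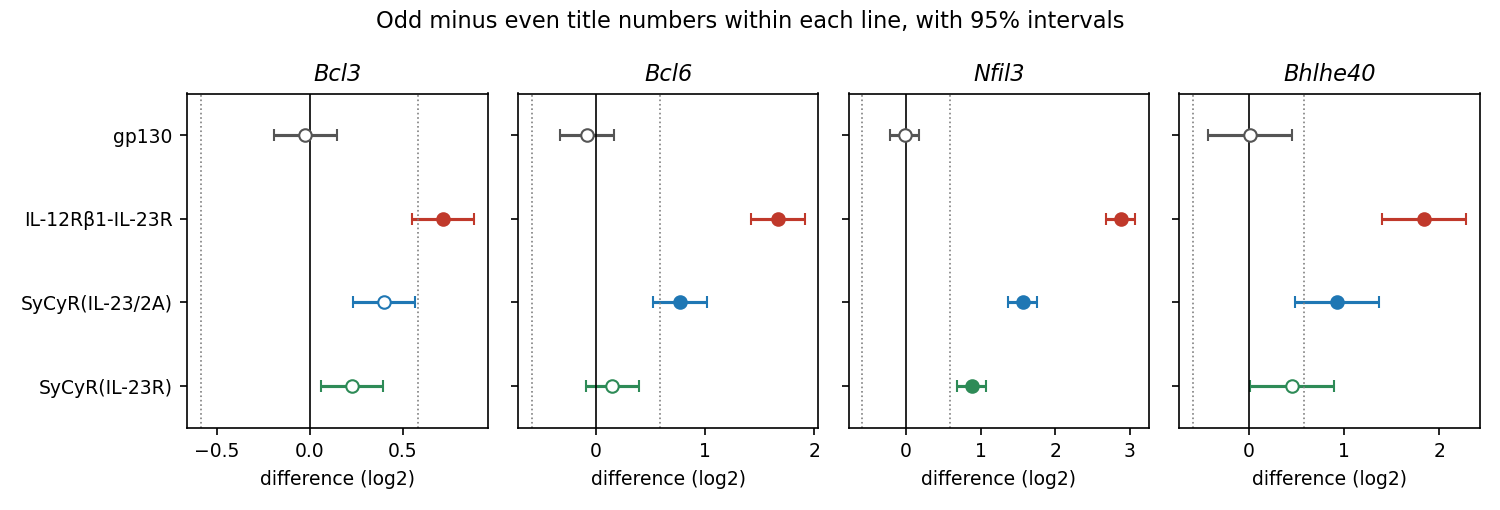
Odd minus even arrays for each member and line, as a difference on the log2 scale with its 95% interval. Filled points passed both limits (limma adjusted p under 0.05 and 1.5-fold, the dotted lines), which held for 4 members in Ba/F3-IL-12Rβ1-IL-23R, for 3 and 1 in the SyCyR lines (IL-23/2A and IL-23R) and for 0 in Ba/F3-gp130.

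The odd arrays were first compared with the even arrays within each line, starting with the line without a further receptor. What its odd and even arrays received is not described, so it cannot stand as a control for the split. All p-values here are from limma on the 23410 probe sets, adjusted by Benjamini-Hochberg, and a call needed an adjusted p under 0.05 and at least 1.5-fold. In Ba/F3-gp130 none of the 4 members was called and none was apart. The differences lay between -0.08 for Bcl6 and 0.02 for Bhlhe40, each with an adjusted p of 1. Over all probe sets limma called 0 (0%) and 260 had an unadjusted p under 0.05, while 1.26% were apart in the 4 and 4 arrays. Leaving out numbers 17 and 18 gave 1 call, and no member.

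In Ba/F3-IL-12Rβ1-IL-23R all 4 members were higher in the odd arrays, where 0.991% of probe sets were called in either direction and 0.859% as higher. Nfil3 was 2.88 higher (SE 0.10), a 7.36-fold difference with an adjusted p of 3.3e-20, and ranked 12 of 23410 by size. Bhlhe40 was 1.84 higher (SE 0.22, 3.59-fold, adjusted p 3.66e-07). Bcl6 was 1.67 higher (SE 0.12, 3.17-fold, adjusted p 9.97e-12). Bcl3 was 0.72 higher (SE 0.08, 1.64-fold, adjusted p 2.49e-07). Every member was apart in the 4 and 4 arrays, as were 7.98% of probe sets.

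In Ba/F3-SyCyR(IL-23/2A) 3 of the 4 members were called higher, against 0.487% of probe sets called and 0.47% called higher. Nfil3 was 1.57 higher (SE 0.10, 2.96-fold, adjusted p 3.36e-13), Bhlhe40 0.93 (SE 0.22, 1.91-fold, adjusted p 0.0209) and Bcl6 0.77 (SE 0.12, 1.71-fold, adjusted p 0.000133). Bcl3 passed the p limit (0.00586) at 0.40 (SE 0.08), which is 1.32-fold and under the fold limit. All 4 were apart, as were 5.06% of probe sets. The call of Bhlhe40 was not stable when 1 array was left out. It was lost without number 13, 15, 18 or 19 of this line, with differences of 0.91, 0.89, 0.78 and 0.91 and adjusted p of 0.0617, 0.0825, 0.158 and 0.077. Without number 13, 15 or 19 the difference hardly moved, and the SE was 0.24. The call was kept with adjacent numbers as a block, a pairing that no label states. It was also kept without numbers 17 and 18 of every line.

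In Ba/F3-SyCyR(IL-23R) Nfil3 alone was called, at 0.88 (SE 0.10, 1.84-fold, adjusted p 5.57e-07), beside 0.137% of probe sets. Bhlhe40 had a difference of 0.45 (95% interval 0.01 to 0.89), Bcl3 of 0.23 (0.06 to 0.39) and Bcl6 of 0.15 (-0.09 to 0.40), each with an adjusted p of 1. The intervals of Bcl3 and Bcl6 lie below the 1.5-fold limit of 0.58, and that of Bhlhe40 includes it. Bcl3 and Nfil3 were apart, as were 1.76% of probe sets.

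Whether these differences were unlike between lines was tested as a difference of differences, 20 tests on members in all. Against Ba/F3-gp130 the odd minus even difference of the IL-12Rβ1-IL-23R line was larger for all 4 members (0.889% of probe sets called). The excess was 2.90 for Nfil3 (SE 0.14, adjusted p 5.62e-16), 1.83 for Bhlhe40 (SE 0.30, 0.000306), 1.74 for Bcl6 (SE 0.17, 1.8e-08) and 0.74 for Bcl3 (SE 0.12, 0.000129). For SyCyR(IL-23/2A) 2 members were called (0.32% of probe sets), Nfil3 at 1.58 (SE 0.14, 2.06e-09) and Bcl6 at 0.85 (SE 0.17, 0.0091). Bhlhe40 and Bcl3 had differences of 0.91 (95% interval 0.29 to 1.54, adjusted p 0.536) and 0.42 (0.19 to 0.66, adjusted p 0.183). With the title number as a block the Bhlhe40 difference, still 0.91 (SE 0.14), had an adjusted p of 0.000505 and was called, and calls over all probe sets went from 75 to 113. For SyCyR(IL-23R) only Nfil3 was called of the 4, at 0.90 (SE 0.14, 0.000401), with 0.094% of probe sets. These 3 comparisons share the Ba/F3-gp130 arrays.

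The 3 receptor lines were then set against each other. The odd minus even difference was smaller in SyCyR(IL-23/2A) than in the IL-12Rβ1-IL-23R line for Nfil3, by -1.31 (SE 0.14, adjusted p 1.18e-06), and for Bcl6, by -0.89 (SE 0.17, 0.0165), where 0.103% of probe sets were called. The Bcl6 call was lost without any 1 of numbers 13, 14 and 15 of the IL-12Rβ1-IL-23R line or 14 and 17 of the SyCyR(IL-23/2A) line, at -0.84 to -0.80 and adjusted p of up to 0.0711. Bhlhe40 gave -0.91 (95% interval -1.53 to -0.29, adjusted p 0.779), and with the title number as a block, for which same-numbered arrays of these lines correlated, the same -0.91 had an adjusted p of 0.00214 and was called, while calls over all probe sets went from 24 to 51. Bcl3 gave -0.32 (-0.55 to -0.08, adjusted p 1). These differences combine both parities. Means in the IL-12Rβ1-IL-23R and SyCyR(IL-23/2A) lines were 11.44 and 11.00 (odd) and 8.56 and 9.43 (even) for Nfil3. For Bcl6 they were 8.63 and 8.46 (odd) and 6.96 and 7.69 (even). Bhlhe40 had 11.83 and 11.71 (odd) and 9.99 and 10.78 (even). For each of these genes the lines lay further apart in the even than in the odd arrays.

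Between the SyCyR lines the difference was smaller in SyCyR(IL-23R) for Nfil3, by -0.68 (SE 0.14, adjusted p 0.0264), where 0.0769% of probe sets were called. This call was lost in 9 of 16 fits that each left out 1 array, numbers 15, 16, 18, 19 or 20 of SyCyR(IL-23/2A) and 15, 16, 18 or 19 of SyCyR(IL-23R), at -0.69 to -0.62 with adjusted p of 0.0521 to 0.11. Bcl6 gave -0.62 (95% interval -0.97 to -0.27, adjusted p 0.511), Bhlhe40 -0.48 (-1.10 to 0.14) and Bcl3 -0.17 (-0.41 to 0.06).

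**Figure D3:**
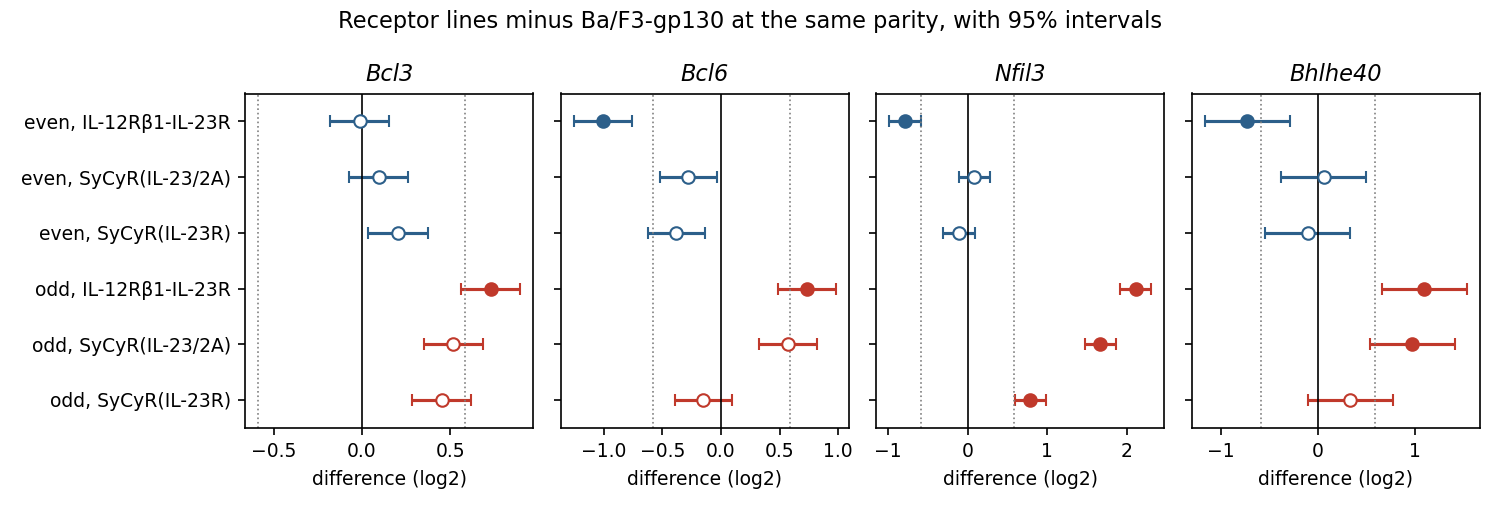
Each receptor line minus Ba/F3-gp130 for each member, for even arrays (blue) and odd arrays (red), as a difference in log2 level with its 95% interval. Filled points passed both limits, and the even arrays of Ba/F3-IL-12Rβ1-IL-23R stand left of 0 for Bcl6, Nfil3 and Bhlhe40 while its odd arrays stand right of 0 for all 4.

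Levels were also compared between lines at the same parity. Among the even arrays the IL-12Rβ1-IL-23R line was lower than Ba/F3-gp130 in 3 of the 4 members, where 2.49% of probe sets were called and 1.11% called lower. Bcl6 stood at -1.01 (SE 0.12, 2.01-fold, adjusted p 2.14e-07), Nfil3 at -0.79 (SE 0.10, 1.72-fold, 3.61e-07) and Bhlhe40 at -0.73 (SE 0.22, 1.66-fold, 0.024). Bcl6 and Nfil3 were apart in the 4 and 4 arrays, as were 15.1% of probe sets, and Bhlhe40 overlapped. Its call was lost without number 14, 16 or 20 of Ba/F3-gp130 or 14 or 18 of the receptor line, at -0.69 to -0.54 and adjusted p of 0.0661 to 0.137. Bcl3 stood at -0.01 (95% interval -0.18 to 0.16). Some markers of other cell types moved with this comparison. Of 13 granulocyte and macrophage markers, 2 were called lower, Mpo at -2.45 and Ctsg at -1.35, the mean of the list ranging from 6.38 to 6.50 on these arrays and from 6.66 to 6.84 on the even arrays of Ba/F3-gp130. The pro-B marker Cd79a was called higher at 1.10, as the only call of 15 pro-B markers with a median of -0.06. The platelet marker Gp9 was called higher at 1.72. The other measured erythroid and megakaryocyte markers lay between -0.09 and 0.50 and were not called. Their part in the result was not tested.

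Bcl6 lies on chromosome 16, and the 334 expressed genes of that chromosome as a whole were lower in the IL-12Rβ1-IL-23R line. Their median was -0.37 in the even arrays, with 93.4% of them lower, and -0.45 in the odd arrays, against -0.03 to 0.06 and -0.07 to 0.00 for the other 19 chromosomes. The Bcl6 level was thus -1.01 beside a chromosome median of -0.37 in the even arrays and 0.73 beside -0.45 in the odd arrays. Odd minus even within the line gave a median of -0.07 for chromosome 16, inside the -0.09 to -0.05 of the other chromosomes. The part of the chromosome in the Bcl6 levels was not tested.

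The even arrays of the SyCyR lines gave no member call against Ba/F3-gp130. In SyCyR(IL-23/2A), where limma called 0.337% of probe sets, the members lay between -0.28 for Bcl6 (adjusted p 0.407, unadjusted 0.0276) and 0.09 for Bcl3 and Nfil3. In SyCyR(IL-23R), where 1.4% were called, Bcl6 was at -0.38 (95% interval -0.63 to -0.14, adjusted p 0.0537) and Bcl3 at 0.20 (0.04 to 0.37, adjusted p 0.162). Their unadjusted p were 0.00345 and 0.0187, and Nfil3 and Bhlhe40 lay at -0.11 and -0.10. No member was apart in the former line (8.95% of probe sets were) and 2 were in the latter (12.1%). The granulocyte and macrophage list had a mean of 6.93 to 7.20 on the even SyCyR(IL-23R) arrays, above the 6.66 to 6.84 of Ba/F3-gp130, with Itgam at 2.01, Lyz2 at 1.56 and Ctsg at 1.41 called higher and Mpo at -1.92 called lower. Fcer1a was called higher there at 1.40, as the only call of 10 mast cell and basophil markers with a median of -0.11. Cd79a was called higher at 0.83 in the even SyCyR(IL-23/2A) arrays, as the only call of 15 pro-B markers with a median of -0.01. The part of these markers was not tested.

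Among the odd arrays all 4 members were higher in the IL-12Rβ1-IL-23R line than in Ba/F3-gp130, where 3.6% of probe sets were called and 1.92% called higher. Nfil3 was 2.11 higher (SE 0.10, 4.32-fold, adjusted p 3.31e-17), Bhlhe40 1.10 (SE 0.22, 0.000367), Bcl6 0.73 (SE 0.12, 3.19e-05) and Bcl3 0.73 (SE 0.08, 5.02e-08). All 4 were apart, as were 15.2% of probe sets. In SyCyR(IL-23/2A), with 1.08% called, Nfil3 was 1.67 higher (SE 0.10, 5.14e-14) and Bhlhe40 0.97 (SE 0.22, 0.00558). Bcl6 and Bcl3 passed the p limit there at 0.57 and 0.52 (adjusted p 0.00329 and 7.9e-05), short of the fold limit of 0.58. Bcl6 crossed that limit without number 13 or 19 of Ba/F3-gp130 or 17 or 19 of the SyCyR line, at 0.59 to 0.65, and Bcl3 without number 19 of Ba/F3-gp130, at 0.60. All 4 were apart here too, beside 10.6% of probe sets. In SyCyR(IL-23R), with 1.68% called, Nfil3 was called at 0.79 (SE 0.10, 8.77e-07). Bcl3 was at 0.45 (adjusted p 0.000362, 1.37-fold), Bhlhe40 at 0.33 (0.439) and Bcl6 at -0.15 (0.547), and 2 members were apart, beside 11.6% of probe sets. Markers moved with the odd arrays too. In the IL-12Rβ1-IL-23R line Mpo at -2.63, Ctsg at -1.21 and the mast cell gene Gata2 at -0.85 were called lower, and Gp9 at 1.47 and Cd79a at 0.93 higher. In SyCyR(IL-23/2A) Cd79a was called higher at 0.68. In SyCyR(IL-23R) Itgam at 1.72, Lyz2 at 1.30 and the mast cell marker Fcer1a at 1.39 were called higher and Mpo at -1.86 lower. Cd79a, Gata2, Fcer1a and Gp9 were each the only call of their list. The pro-B medians were 0.05 in the IL-12Rβ1-IL-23R line and 0.02 in SyCyR(IL-23/2A). Mast cell medians were -0.30 in the IL-12Rβ1-IL-23R line and -0.23 in SyCyR(IL-23R). The other genes listed with Gp9 lay between -0.42 and 0.26 in the IL-12Rβ1-IL-23R line. Their part in these values was not tested.

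**Figure D4:**
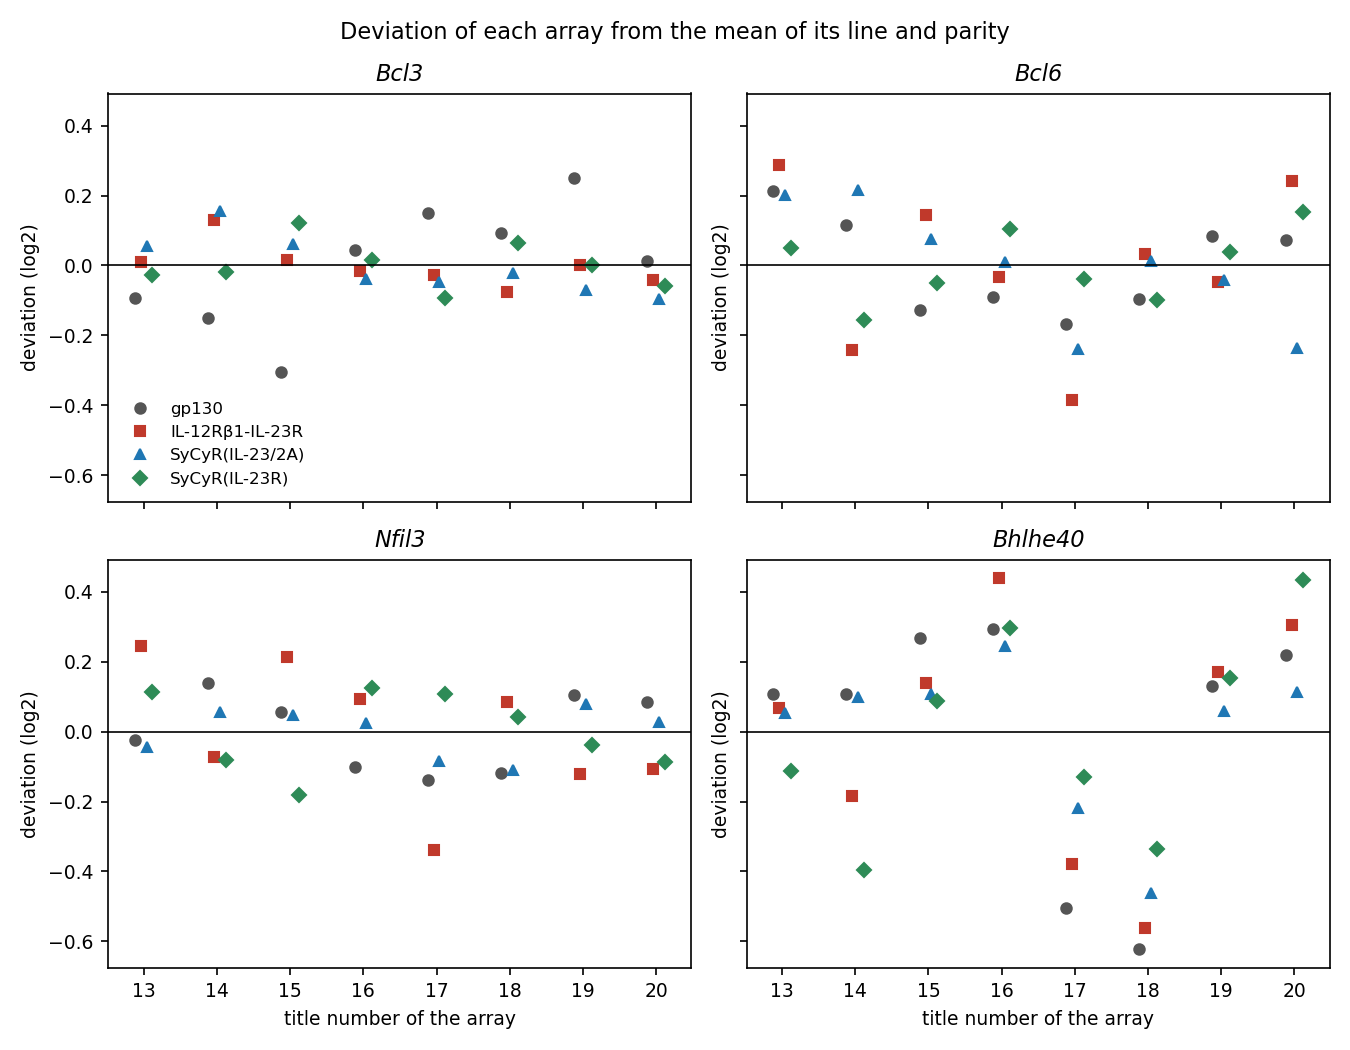
Deviation of each array from the mean of its line and parity (log2, y axis) by title number (x axis), with 1 symbol per line. For Bhlhe40 numbers 17 and 18 lie below 0 in all 4 lines, between -0.62 and -0.13, and the zero line is the mean of 4 arrays.

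The spread within groups followed the title number most clearly for Bhlhe40. Number 17 was the lowest odd array of every line, at 10.23, 11.45, 11.49 and 10.94, and number 18 the lowest even array of 3 lines, at 10.10, 9.43 and 10.32. In SyCyR(IL-23R) number 18 read 10.28 and number 14 was lower at 10.22. Number 17 or 18 was thus the lowest in 7 of 8 groups for Bhlhe40, 5 for Nfil3, 4 for Bcl6 and 3 for Bcl3. What the numbers share is not given by the labels. Without these 8 arrays the same 4, 3 and 1 members were called in the receptor lines, where 259, 116 and 34 probe sets were, and the SE of Bhlhe40 fell from 0.22 to 0.15. Its differences were then 1.78, 0.85 and 0.38.

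**Figure D5:**
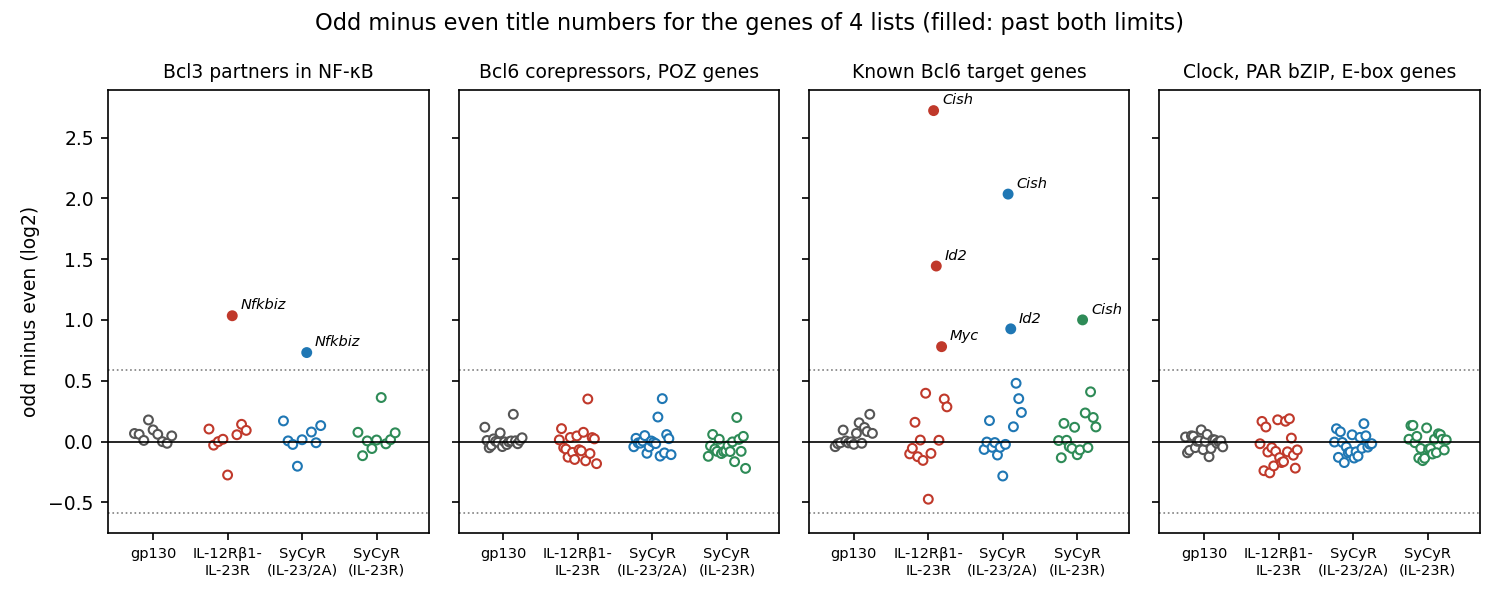
Odd minus even difference (log2, y axis) of each measured gene of 4 lists in each line (x axis), filled and named where both limits were passed. Nfkbiz among the Bcl3 partners and Cish, Id2 and Myc among the known Bcl6 targets pass, and no gene of the other lists does.

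The genes that work with the members were then counted. Of 9 measured NF-κB genes that share partners with Bcl3, 1 rose in the odd arrays of the IL-12Rβ1-IL-23R line and 1 in SyCyR(IL-23/2A). Both times it was Nfkbiz, which encodes IκBζ, another nuclear member of the IκB family, at 1.03 (SE 0.10, adjusted p 1.18e-08) and 0.73 (SE 0.10, 2.24e-05). In SyCyR(IL-23R) it stood at 0.36 (adjusted p 0.385) and in Ba/F3-gp130 at 0.06. Of all probe sets, 0.859% were called higher in the IL-12Rβ1-IL-23R line and 0.47% in SyCyR(IL-23/2A). The subunit genes Rela, Relb, Rel and Nfkb2 lay between 0.06 and 0.14 in the IL-12Rβ1-IL-23R line with adjusted p of 0.341 to 0.795. The median of the 9 there was 0.06, against 0.00 for all probe sets. Between lines, Nfkbia, the classical cytoplasmic inhibitor, was higher in SyCyR(IL-23R) than in Ba/F3-gp130 by 1.41 in even arrays (SE 0.29, adjusted p 0.00208) and 1.24 in odd arrays (0.00625).

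Of 18 measured corepressors and related POZ zinc finger genes of Bcl6, limma called none between odd and even arrays in any line. An unadjusted p under 0.05 was reached by 1 in Ba/F3-gp130 and by 2 in each of the other lines, where 1.11% of all probe sets reached it in Ba/F3-gp130, 17.4% in the IL-12Rβ1-IL-23R line, 6.88% in SyCyR(IL-23/2A) and 3.53% in SyCyR(IL-23R). Bcor, a direct corepressor of Bcl6, stood at 0.11 in the IL-12Rβ1-IL-23R line and Hdac3 at -0.15. Prdm1, the plasma cell regulator that Bcl6 is known to hold down, had 0.35 (adjusted p 0.0287, under the fold limit) from a probe set with a mean of 5.95, below the median of all. As a Bcl6 target, Prdm1 was counted in this list and again in that of the targets. The highest difference in Ba/F3-gp130 was 0.22 in both lists. Between lines Hdac7, a class IIa deacetylase, was lower than in Ba/F3-gp130 by -0.89 (even, adjusted p 1.08e-07) and -0.94 (odd, 2.5e-08) in the IL-12Rβ1-IL-23R line, and by -0.63 and -0.68 in SyCyR(IL-23R). Mta3 was lower by -0.73 in odd arrays of the latter.

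Of 15 measured genes known as Bcl6 targets, 3 rose in the odd arrays of the IL-12Rβ1-IL-23R line, 2 in SyCyR(IL-23/2A) and 1 in SyCyR(IL-23R). None was called lower. Of all probe sets, 0.991%, 0.487% and 0.137% were called in these lines, in either direction. Cish, a feedback inhibitor of cytokine receptors and itself a STAT target, rose in all 3, by 2.72 (SE 0.13, adjusted p 2.05e-16), 2.03 (5.41e-13) and 1.00 (1.16e-05). Id2, an inhibitor of helix-loop-helix factors, rose by 1.44 (SE 0.22, 3.15e-05) and 0.93 (0.0225) in the first and second of these lines. Myc, a growth regulator, rose by 0.78 (SE 0.10, 1.9e-06) in the first. Cdkn1b, a cell cycle inhibitor, passed the p limit at -0.47 (1.69e-05) in that line and not the fold limit. The median of the 15 there was 0.01, beside 0.00 for all probe sets. In Ba/F3-gp130 limma called none, and 1 of the 15 had an unadjusted p under 0.05, beside 1.11% of all probe sets. Between lines Cish was also higher in the even SyCyR(IL-23R) arrays than in those of Ba/F3-gp130, at 0.62 (adjusted p 0.00212), where the chemokine gene Ccl3 stood at 4.44 (4.06e-07) and Bcl2, which protects from cell death, at -0.66 (7.97e-07).

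Of 20 measured clock, PAR bZIP and E-box genes, the partners and competitors of Nfil3 and Bhlhe40, limma called none between odd and even arrays. In the IL-12Rβ1-IL-23R line 8 of the 20 had an unadjusted p under 0.05, beside 17.4% of all probe sets, the differences lay between -0.26 and 0.19, and the median was -0.08. Cry2 stood at -0.26 (adjusted p 0.0528), Per1 at -0.17 (0.186), Per2 at 0.17 (0.259) and Nr1d1 at -0.13 (0.574). Dbp and Tef, PAR bZIP activators that bind the same sites as Nfil3, were at -0.08 and -0.11. Bhlhe41, the close relative of Bhlhe40, was at 0.17 (0.211) from a probe set with a mean of 5.04. At that p the count was 0 in Ba/F3-gp130, 1 in SyCyR(IL-23/2A) and 0 in SyCyR(IL-23R), beside 1.11%, 6.88% and 3.53% of all probe sets.

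Last, the genes most like each member were taken by the root mean square difference over the 32 arrays, after the even mean of each line was subtracted, among 11082 genes above the median signal. Nearest to Nfil3 were Cish at 0.24, Il4ra at 0.31 and Junb at 0.31. Il4ra, the IL-4 receptor chain, had odd minus even differences of -0.19, 2.46, 1.91 and 1.43 from Ba/F3-gp130 to SyCyR(IL-23R). The AP-1 gene Junb had 0.04, 2.25, 1.76 and 1.32. Nearest to Bhlhe40 were Fosl2, another AP-1 gene, at 0.20, the chromatin remodeller Chd7 at 0.22 and Myd88, an adaptor of Toll-like receptors, at 0.26. Nearest to Bcl6 were the galactosyltransferase gene B4galt5 at 0.15, Sema6b at 0.19 and Ccnj at 0.19. B4galt5 had differences of -0.09, 1.58, 0.53 and 0.17. Nearest to Bcl3 were Prickle1 at 0.12, Plscr1 at 0.13 and Frmd6 at 0.13, with differences of 0.69, 0.74 and 0.64 in the IL-12Rβ1-IL-23R line. Since small profiles lie near each other by this measure, a low distance for Bcl3 is not comparable with that of Nfil3.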

How the data were processed

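Total RNA of 32 samples was hybridised to Affymetrix mouse Gene ST arrays. Per the labels the authors summarised them at core exon level in Affymetrix Expression Console with RMA, and per the methods with sketch-quantile normalization. The deposited table holds log2 values, and for the software version the sources used here give none. The number of arrays limits the precision.

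Groups were taken from the label of each array, as line and odd or even number. The labels do not state what this parity stands for. The members, the lists and the split were chosen with earlier results of these data known, so none of them is independent evidence. Of 35556 probe sets, the platform annotation names 21789 by 1 symbol, 1621 by several and 12146 by none. For a list gene measured by more than 1 probe set, that with the highest mean was used.

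Comparisons used lmFit and eBayes of limma 3.58.1 (R 4.3.3) with 8 group means over all 32 arrays and 23410 probe sets with a symbol, with 15 contrasts. Adjustment was by Benjamini-Hochberg, with calls made below 0.05 at 1.5-fold or more. The study's limits were 1.5-fold and p of at most 0.01, and its test is not named. The step was tested on simulated data. Python 3.11.15, numpy 2.4.6, pandas 2.3.3 and matplotlib 3.10.9 made the motif counts and plots.

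Named genes are the members, the list genes called between odd and even arrays (up to 4 per list and direction) or named as background partners, and the 3 nearest profiles per member. List genes named for a difference between lines were chosen after their values were seen.

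Whether equal numbers pair arrays across lines was checked by correlating deviations from the group means. Every one of the 8 pairs exceeded 0.1 when Ba/F3-IL-12Rβ1-IL-23R was set against Ba/F3-gp130 (lowest 0.112) or against Ba/F3-SyCyR(IL-23/2A) (lowest 0.115), and 7 of 8 did between the latter and Ba/F3-gp130 (lowest 0.0882). The numbers were taken to pair these 3 lines, which no label states. Alternatives were limma-trend, array weights, other probe set filters, other scaling, blocks by number, fewer lines, the study's limits, and leaving out each array or numbers 17 and 18.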

Additional observations from a re-analysis of the deposited data

Results flagged for a closer look

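In 1 of 32 groups of 4 arrays, a member's lowest or highest array stood far from the others. For Bhlhe40, among odd Ba/F3-SyCyR(IL-23/2A) arrays, number 17 read 11.49 and the gap to the nearest array was 0.834 of the range. Chance gives such a gap in about 1 group in 20.

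The odd minus even difference was unlike between lines, by a test of the difference, in 10 of 20 comparisons. Against Ba/F3-gp130 it was larger in Ba/F3-IL-12Rβ1-IL-23R by 0.74 for Bcl3, 1.74 for Bcl6, 2.90 for Nfil3 and 1.83 for Bhlhe40. For Ba/F3-SyCyR(IL-23/2A) the excess was 0.85 for Bcl6 and 1.58 for Nfil3, and for Ba/F3-SyCyR(IL-23R) 0.90 for Nfil3. Ba/F3-SyCyR(IL-23/2A) minus Ba/F3-IL-12Rβ1-IL-23R gave -0.89 for Bcl6 and -1.31 for Nfil3, and Ba/F3-SyCyR(IL-23R) minus Ba/F3-SyCyR(IL-23/2A) gave -0.68 for Nfil3. Lines differ in selection history as well as receptor, and these cannot be told apart.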

How the results depend on the processing

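Of 600 member values under settings that refit the whole table, 588 kept their side of the limits. When 1 array was left out, 612 of 640 did. No value that was called in the reported or the alternative fit reversed in direction. Small uncalled differences did change sign. Bhlhe40 odd minus even in Ba/F3-gp130 ran from -0.19 to 0.18 with 1 array left out. Limma-trend and the filter on bright probe sets changed no member call. With all probe sets (including those with no symbol) Nfil3 in SyCyR(IL-23R) minus SyCyR(IL-23/2A) lost its call at -0.68 (adjusted p 0.0689), and with arrays centred on their medians at -0.68 (0.139). Centring also ended the Bcl6 call in SyCyR(IL-23/2A) minus IL-12Rβ1-IL-23R at -0.86 (0.0815), as did fitting these lines alone at -0.89 (0.187). Bcl6 in odd SyCyR(IL-23/2A) arrays passed the fold limit with centring at 0.59, with repeated quantile normalization at 0.62 and without numbers 17 and 18 at 0.59. At the study's limits, which use an unadjusted p, Bhlhe40 passed in SyCyR(IL-23/2A) against Ba/F3-gp130 at 0.91 and against IL-12Rβ1-IL-23R at -0.91, and Bcl6 between the SyCyR lines at -0.62. The causes were not tested.

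With the title number as a replicate block Bhlhe40 passed in SyCyR(IL-23/2A) against Ba/F3-gp130 at 0.91 (adjusted p 0.000505) and against IL-12Rβ1-IL-23R at -0.91 (0.00214), and no other member call changed. Same-numbered arrays of SyCyR(IL-23R) and the other lines correlated at 0.0616 to 0.0721 at the lowest, with 5 to 7 of 8 above 0.1. The medians were 0.25 to 0.317, beside -0.05 to -0.036 for arrays of unlike number. The block fit still held the arrays of SyCyR(IL-23R), so the blocked values of that line rest on a pairing that is less sure. Within a line a number occurs once, so odd minus even was blocked by adjacent numbers, which no label pairs, and no call changed. Adjacent arrays of a line correlated at 0.132 or more.

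Counts over all probe sets moved as follows. In SyCyR(IL-23/2A) minus IL-12Rβ1-IL-23R, 24 became 47 with array weights, 15 with all probe sets, 11 with centring, 58 without numbers 17 and 18, 75 at the study's limits, 13 with only these lines and 51 with the block. In SyCyR(IL-23/2A) minus Ba/F3-gp130, 75 became 113 at the study's limits and 113 with the block. In SyCyR(IL-23R), 22 against Ba/F3-gp130 became 37 at the study's limits, and 18 against SyCyR(IL-23/2A) became 37 there and 31 with the block. Odd minus even in Ba/F3-gp130 gave 1 call in place of 0 without numbers 17 and 18. With all probe sets, odd minus even in IL-12Rβ1-IL-23R went from 232 to 357. Levels against Ba/F3-gp130 then went from 79 to 165 and 327 to 1240 in even arrays of SyCyR(IL-23/2A) and SyCyR(IL-23R), and from 843 to 1278, 252 to 692 and 394 to 1246 in odd arrays of the 3 receptor lines. Centring moved the split of higher and lower even-array calls from 49 and 30 to 62 and 18 in SyCyR(IL-23/2A) and from 178 and 149 to 241 and 95 in SyCyR(IL-23R), and repeated quantile normalization moved the latter to 217 and 117.

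Leaving out each array in turn, the calls that changed had these ranges. Bhlhe40 odd minus even in SyCyR(IL-23/2A) ran from 0.78 to 1.01, and in even IL-12Rβ1-IL-23R arrays against Ba/F3-gp130 from -0.94 to -0.54. Bcl6 in SyCyR(IL-23/2A) minus IL-12Rβ1-IL-23R ran from -1.02 to -0.80, and Nfil3 between the SyCyR lines from -0.72 to -0.62. In odd SyCyR(IL-23/2A) arrays against Ba/F3-gp130 Bcl3 ran from 0.42 to 0.60 and Bcl6 from 0.50 to 0.65. The count for SyCyR(IL-23/2A) minus IL-12Rβ1-IL-23R ran from 15 to 65, the highest without number 17 of the latter line, and that for Ba/F3-gp130 from 0 to 1. The alternative of another probe set per member was not run, because each member has 1. The number of arrays and their signal over background limit what can be seen.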
